A study of Mus musculus with 47 samples.

Results

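Adding mifepristone to estradiol and progesterone was examined in the basal, stem cell-enriched fraction of the mouse mammary gland. All animals were ovariectomized FVB mice treated for 14 days, so none had ovarian hormones of its own. The control group received estradiol with progesterone (EP), and the compared group received the same hormones with mifepristone (EP+RU486). Members were the 8 libraries that the sample names place in these groups, 4 EP (mice 306, 311, 322 and 327) and 4 EP+RU486 (mice 308, 313, 324 and 329), of 47 libraries in the series. The fraction was sorted by flow cytometry and is labelled mammary stem cells (MSC). Sham-treated mice (4 MSC libraries) and mice given EP with the related antagonist telapristone acetate (EP+TPA, 4 MSC libraries) share the fit and serve as reference levels. Doses are not given in the sources used here, and no group received an antagonist without hormones.

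Progesterone drives the expansion of mammary epithelium, and its receptor is found mainly in hormone-sensing luminal cells. Those cells release signals such as RANKL (Tnfsf11) and WNT4 that act on neighbouring basal and progenitor cells, which carry little receptor of their own. Mifepristone is a steroid that blocks the progesterone receptor and also the glucocorticoid receptor, so both receptors' target genes are relevant here. Basal cells express keratins 5 and 14, the transcription factor p63 and smooth muscle genes of the contractile myoepithelium.

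The values had the scale of FPKM, a measure of expression per transcript length and per library, and read depth is unknown. The authors' values had been shifted and rescaled gene by gene within sets of libraries, so that levels compare within a set. Mice 306, 322, 308 and 324 belong to a set that was adjusted together with the luminal progenitor libraries (set 2). Mice 311, 327, 313 and 329 belong to a set made of MSC libraries alone (set 3). Each set thus holds 2 EP and 2 EP+RU486 mice, and the 2 sets give comparisons with no library in common. In set 3, 571 genes above 10 in at least 1 MSC library were listed at 0 in another, against 5 in set 2. Fold sizes of such genes in set 3 depend on that adjustment. Per-library values below are after rescaling within a set, folds are on the log2(value + 1) scale, and each mean ± SD is over 4 mice.

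The label of the fraction held unevenly, and in set 3 the markers went against it. The mean log2(value + 1) of 16 basal markers was 4.23 and 6.78 in EP mice 306 and 322 and 5.91 and 6.87 in EP+RU486 mice 308 and 324. In set 3 it was 3.78 and 6.17 in EP mice 311 and 327, but 0.29 and 3.56 in EP+RU486 mice 313 and 329. In mouse 313, 12 of the 16 were listed at 0, among them the defining genes Krt5, Krt14 and Acta2. Endothelial markers (16 genes) had means of 6.91 and 4.04 in EP mice of set 2, 6.66 and 4.76 in EP+RU486 mice of set 2, 5.55 and 0.00 in EP mice 311 and 327, and 5.93 and 5.18 in EP+RU486 mice 313 and 329. All 16 were listed at 0 in mouse 327. Luminal progenitor markers (16 genes) had means of 4.71 and 4.83 in EP and 4.90 and 5.02 in EP+RU486 mice of set 2, and of 6.82 and 6.50 in EP and 6.97 and 7.08 in EP+RU486 mice of set 3. Pan-luminal markers (10 genes) were at 5.78 and 6.14 in EP and 5.82 and 6.51 in EP+RU486 mice of set 2, and at 7.81 and 7.47 in EP and 7.67 and 8.05 in EP+RU486 mice of set 3. Both luminal means were thus above the basal mean in all 4 libraries of set 3. In set 2 this held for 1 library (EP mouse 306). The adjustment by set moved levels by gene, so luminal content and adjustment cannot be told apart in set 3. Summed over the list, endothelial levels ran from 0 to 2823 in EP and from 733 to 3036 in EP+RU486. The basal sums ran from 529 to 6980 in EP and from 8.11 to 8297 in EP+RU486. In bulk libraries, fewer cells of a type and less RNA per cell cannot be told apart.

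No gene passed the test. With limma's moderated test on all 16 MSC libraries, 0 of 12188 genes (0%) had an adjusted p under 0.05 for EP+RU486 minus EP, and the smallest adjusted p was 0.231. At an unadjusted p under 0.05 there were 592 genes (4.86%), 221 higher with RU486 (1.81%) and 371 lower (3.04%). The median fold of all genes was 0.04. In 63 genes (0.517%) the 4 EP+RU486 values all lay above the 4 EP values, and in 152 (1.25%) all lay below. In 267 genes (2.19%) both mice given RU486 were above both EP mice within each set, and in 388 (3.18%) both were below. The difference between the 2 sets' effects passed the test for 0 genes (0%), with 123 at an unadjusted p under 0.05 (1.01%).

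Genes of cell division were lower with RU486 in both sets of mice, without any of them passing the test. The mitosis list (spindle, kinetochore and cytokinesis genes) had 45 of 56 members tested, and all 45 folds were below 0, with a median of -0.86. Among all genes tested, 45% of folds were below 0. None of the 45 passed the test; 38 had an unadjusted p under 0.05, 12 did not overlap between groups, and 31 were lower in both sets. The list of DNA replication and nucleotide synthesis genes had 43 of 47 members tested, again with every fold below 0 and a median of -0.58. Of these, 22 had an unadjusted p under 0.05, 6 did not overlap and 18 were lower in both sets. Among all genes tested, 3.04% were lower at an unadjusted p under 0.05, and 1.25% were lower without overlap. In 3.18% both RU486 mice were below both EP mice within each set, which is what lower in both sets means here. The medians were -0.64 in set 2 and -1.15 in set 3 for mitosis genes, and -0.32 and -0.79 for replication genes. Over both lists together, 84 of 88 folds were below 0 in set 2 and 85 of 88 in set 3. A member could pass the filter on low values through its EP libraries alone, as 9 of the 88 did, so the counts are a description. Without that filter, the folds of all 103 measured members were below 0 when averaged over the sets, 97 in set 2 and 100 in set 3. The lists were chosen with earlier results of these data known.

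**Figure D1:**
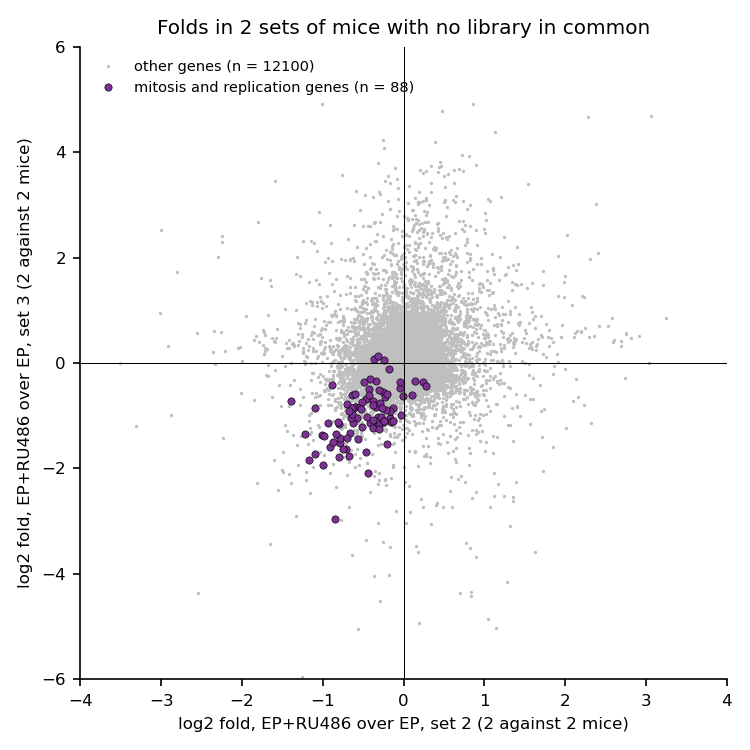
Log2 fold of EP+RU486 over EP in set 2 (x axis, 2 against 2 mice) and in set 3 (y axis, 2 against 2 mice) for each gene tested; purple points are the 88 mitosis and replication genes and grey points the other 12100. Most purple points lie at the lower left, 84 below 0 in set 2 and 85 in set 3; 1 gene (Krt14, at -8.30 in set 3) lies outside the axes.

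Per library, the mean log2(value + 1) of the mitosis list was 1.58 and 1.90 in EP mice of set 2 against 1.03 and 1.28 in the RU486 mice. In set 3 it was 2.25 and 2.34 against 0.90 and 1.62. Within each set both RU486 libraries were therefore below both EP libraries. The replication list showed the same order, with 2.43 and 2.65 against 2.19 and 2.30 in set 2, and 3.21 and 3.28 against 2.31 and 2.57 in set 3. In set 2 the 2 RU486 mice held basal means of 5.91 and 6.87, within or above those of the EP mice. Without mice 327 and 313 the medians were -0.66 for mitosis and -0.45 for replication genes. With the endothelial marker level as a covariate they were -0.76 and -0.48. When libraries were weighted by their estimated spread, an alternative fit, limma called 96 genes (0.788%), 7 higher (0.0574%) and 89 lower (0.73%), and 38 of the 89 were on these lists. That count was 0 without EP mouse 327, 0 without EP+RU486 mouse 313 and 4341 without EP mouse 311, so it hung on single libraries.

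**Figure D2:**
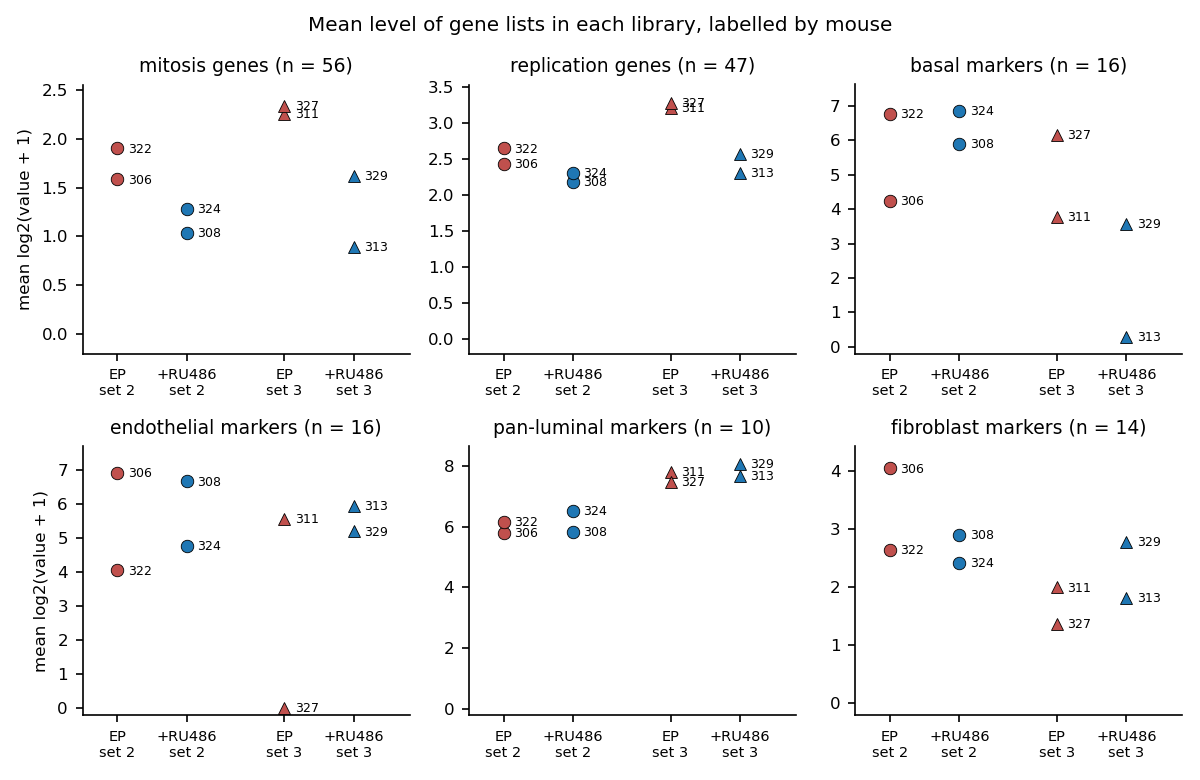
Mean log2(value + 1) of 6 gene lists in each of the 8 libraries (number of members measured in brackets), EP in red and EP+RU486 in blue, circles for set 2 and triangles for set 3, labelled by mouse. Mitosis and replication genes are lower in the RU486 mice of both sets, whereas basal and endothelial markers vary widely within groups, with mouse 313 at 0.29 for basal and mouse 327 at 0.00 for endothelial markers.

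Uhrf1, which is needed for DNA methylation to be copied onto newly made strands, was at 3.20, 10.7, 2.60 and 8.84 in EP mice 306, 311, 322 and 327. In RU486 mice 308, 313, 324 and 329 it was at 1.57, 1.36, 2.17 and 1.71. The groups did not overlap, and the difference was larger in set 3 (log2 fold -2.08) than in set 2 (-0.45). The fitted fold was -1.27 ± 0.26 (SE; limma, adjusted p = 0.41).

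Mcm5, a subunit of the replicative helicase, was at 5.43, 20.4, 9.94 and 22.6 in the EP mice and 3.64, 5.91, 4.35 and 6.67 in the RU486 mice, in the same order of mice. The highest RU486 value exceeded the lowest EP value, but within each set both RU486 mice were lower. The fold was -1.19 ± 0.25 (SE; limma, adjusted p = 0.41).

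Spc24, a part of the kinetochore, was at 1.53, 6.64, 5.39 and 7.19 against 0.83, 0.74, 0.75 and 1.84, with a fold of -1.502 ± 0.31 (limma, adjusted p = 0.41). Cenpn, which helps to assemble the centromere, was at 1.57, 2.48, 2.29 and 2.81 against 0.60, 0.51, 0.41 and 0.81. Its groups did not overlap, and the folds of both sets were close, at -0.95 and -1.14. Dscc1, a factor of sister chromatid cohesion, was at 1.11, 2.42, 1.21 and 3.31 against 0.37, 0.48, 0.52 and 0.73, again without overlap. Cenpn and Dscc1 passed the filter on low values only through their EP libraries, as did Ndc80, Mybl2, Ccne2 and Axin2 below, and Cd3g only through its RU486 libraries.

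Further examples from the lists were picked after their values were seen. Rrm2, the ribonucleotide reductase subunit that limits deoxynucleotide supply, was 12.2 ± 5.1 in EP and 2.71 ± 1.8 with RU486. Tyms, which makes thymidylate, was 5.58 ± 1.3 and 2.77 ± 0.48. Cdk1, the kinase that starts mitosis, was 3.97 ± 1.2 and 1.28 ± 0.32. The groups of these 3 genes did not overlap. The same held for Ndc80 (2.13 ± 0.39 and 0.59 ± 0.18), Cenpa (7.67 ± 2.7 and 2.45 ± 0.52), E2f1 (4.098 ± 1.3 and 1.12 ± 0.40), Mybl2 (1.88 ± 0.74 and 0.66 ± 0.33) and Ccne2 (1.70 ± 0.29 and 0.70 ± 0.09). Top2a, at 4.19 ± 1.3 and 1.41 ± 1.2, overlapped. Mki67, a proliferation marker, was too low to be tested, at 0.67 to 0.88 in EP and 0.31 to 0.83 with RU486. The list of cyclins and CDK inhibitors as a whole stayed near 0 (21 of 23 tested, 11 folds below 0, median -0.03). Its inhibitor Cdkn1a was at 324, 109.9, 129.7 and 0 in EP and 184, 140.5, 174.9 and 105.7 with RU486, so that its fold of 1.68 rested on mouse 327 and became -0.02 without it.

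Promoters of these genes were searched for letters bound by cell cycle factors, a search chosen after the values were seen. E2F-type letters (TTTCCCGC, TTTGGCGC, TTTCGCGC or TTTGCCGC, either strand) stood within 250 bases before the start in 9 of 36 replication genes with a RefSeq promoter (25%) and in 2 of 36 mitosis genes (5.56%). All tested genes had them in 376 of 9498 promoters (3.96%). The CHR letters (TTTGAA or TTCGAA) stood in 44.4% of mitosis, 25% of replication and 14.5% of tested genes. The letters of the glucocorticoid and progesterone receptor element (AGAACA and TGTTCT with 3 bases between) stood in 1 of 24 glucocorticoid response genes. That gene was the only 1 of 9498 tested genes with them (0.0105%). A match is a description of letters, not evidence of binding. The stretches below are shown because their genes, Uhrf1, Mcm5 and Cdk1, are described above and each holds the same E2F-type letters; other promoters of described genes that were read for this purpose held none. The sequences are RefSeq's for GRCm38.p6, not FVB, written 5′ to 3′ on the gene's strand with the TTTCGCGC match in capitals. In Mcm5 a further match, TTTGGCGC on the other strand, overlaps the capitals and runs on into the lower-case letters after them. They lie at chr17:56304092-56304171 (plus strand), chr8:75109320-75109399 (plus) and chr10:69353000-69353079 (minus), all before the transcript start.
Uhrf1: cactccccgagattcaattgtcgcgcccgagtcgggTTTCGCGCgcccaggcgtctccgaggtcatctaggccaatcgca
Mcm5: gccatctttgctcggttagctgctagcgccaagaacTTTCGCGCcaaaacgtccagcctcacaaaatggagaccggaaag
Cdk1: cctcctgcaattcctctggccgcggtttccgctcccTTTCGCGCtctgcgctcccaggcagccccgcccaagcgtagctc
The capitals begin 185, 153 and 131 bases before the start of Uhrf1, Mcm5 and Cdk1.

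Outside the cell cycle, Phgdh was among the genes of smallest p. Phgdh, the first enzyme of serine synthesis from glucose, was at 21.8, 21.2, 25.6 and 30.6 in EP mice 306, 311, 322 and 327. It was at 7.34, 4.14, 9.51 and 4.86 in RU486 mice 308, 313, 324 and 329. The lowest EP mouse was above every RU486 mouse, and the ratio of means (24.8 ± 4.3 over 6.46 ± 2.4) was 3.84. The fold was -1.83 ± 0.31 (95% interval -2.50 to -1.17; limma, adjusted p = 0.231). It was -1.40 in set 2 and -2.27 in set 3.

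The other enzymes of the route were looked at afterwards. Psat1, the second enzyme, was at 9.68, 14.4, 29.9 and 40.6 in EP and 4.28, 5.46, 5.80 and 6.70 with RU486, without overlap (fold -1.72 ± 0.39; limma, adjusted p = 0.41). Psph, the third, overlapped, at 8.41 ± 3.8 and 5.49 ± 1.0. Mthfd2 and Shmt2, mitochondrial enzymes that use serine carbon, overlapped too, with folds of -1.04 and -0.39. In fits added after seeing the data, Phgdh and Glb1l2 were the only genes past limma's test (0.0164% of genes, both lower), with adjusted p of 0.024 and 0.046 when the endothelial marker level was a covariate. They were again the only 2 (0.0164%) with the basal marker level, at 0.027 and 0.037. The folds of Phgdh were then -1.54 and -1.59.

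Glb1l2, a galactosidase-like gene, had the smallest p of all. It was at 9.30, 3.36, 4.12 and 2.66 in EP and 1.25, 0.54, 1.95 and 0 with RU486, without overlap, with a fold of -1.59 ± 0.25 (limma, adjusted p = 0.231). Gnai1, an inhibitory G protein subunit, was at 14.3, 3.14, 10.8 and 10.8 against 4.22, 1.68, 5.75 and 1.15, lower within each set but overlapping across sets. Pcsk6, a protease that activates secreted precursors and was picked after its values were seen, was 10.1 ± 3.1 against 2.14 ± 1.7 without overlap.

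**Figure D3:**
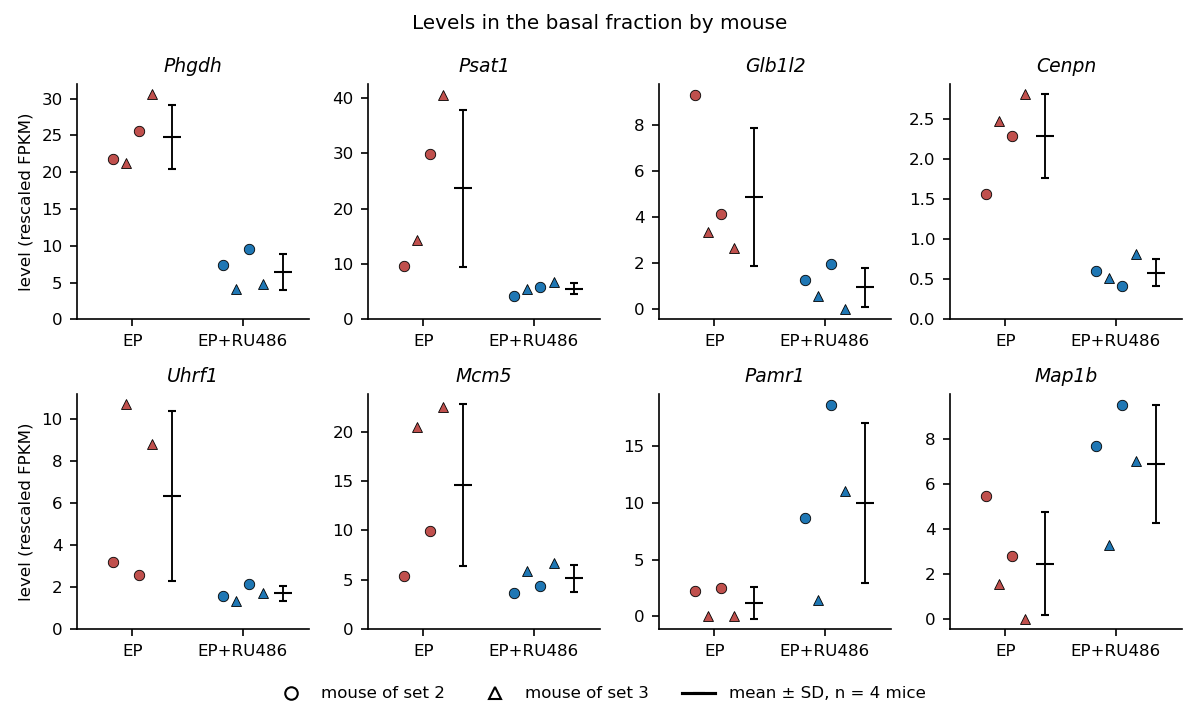
Level (rescaled FPKM scale) of 8 genes in each mouse, EP in red and EP+RU486 in blue, circles for set 2 and triangles for set 3, with the mean ± SD of 4 mice beside each group. Phgdh, Psat1, Glb1l2, Cenpn and Uhrf1 do not overlap between groups, whereas Mcm5, Pamr1 and Map1b do.

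Genes that were higher with RU486 were mostly low in EP. Pamr1, a secreted protease-like protein, was at 2.26, 0.02, 2.53 and 0 in EP and 8.69, 1.49, 18.6 and 10.99 with RU486. Both RU486 mice were above both EP mice in each set, but mouse 313 lay below EP mice 306 and 322 of the other set (fold 2.23 ± 0.46; limma, adjusted p = 0.41). Skint7, of an epithelial immunoglobulin family, was at 0.41, 0, 0.11 and 0 against 3.997, 0.18, 5.79 and 3.90. Sync, an intermediate filament-linked muscle protein, was 0.30 ± 0.23 against 2.42 ± 2.0, and Map1b, a microtubule-associated protein, 2.44 ± 2.3 against 6.87 ± 2.6.

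Mettl27 and Cd3g did not overlap, at 2.999 ± 0.66 against 6.36 ± 1.9 and at 0.28 ± 0.22 against 1.53 ± 0.61. Papln, a matrix protein, was 33.3 ± 23 against 55.6 ± 32, and the peptidase Anpep 20.5 ± 13 against 34.7 ± 21; both overlapped across sets and were higher within each. Tnc and Timp2, both matrix genes, were picked after their values were seen. Tnc, tenascin C, was at 9.18, 15.2, 3.59 and 4.601 in EP and 29.9, 20.3, 20.5 and 70.9 with RU486, without overlap (fold 1.98 ± 0.55; limma, adjusted p = 0.749). Timp2, a metalloproteinase inhibitor, was 64.5 ± 20 against 126.6 ± 32. The collagen and matrix list as a whole had 18 folds above and 19 below 0.

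No receptor or paracrine gene passed the test, and their folds varied in size and sign. The progesterone receptor gene Pgr was at 0.32, 1.82, 1.05 and 1.83 in EP and 0.52, 1.23, 0.85 and 1.52 with RU486, near the floor of the data in both (fold -0.12, 95% interval -0.51 to 0.27). Esr1, the estrogen receptor, was 3.43 ± 2.1 and 3.89 ± 2.3. Tnfsf11 (RANKL) was 2.28 ± 1.4 and 2.49 ± 1.0, and its receptor Tnfrsf11a 7.39 ± 4.5 and 12.6 ± 6.6. Wnt4 was 3.64 ± 1.9 and 3.95 ± 1.4, the WNT enhancer Rspo1 12.6 ± 6.7 and 13.1 ± 7.8, and the EGF receptor ligand Areg 43.4 ± 39 and 29.3 ± 24. All of these groups overlapped. Of 14 paracrine genes tested, 7 folds were below 0, with a median of 0.04 and a range of -1.66 to 1.40. In 1 of the 14, Tnfrsf11b (osteoprotegerin, the decoy receptor of RANKL), the groups did not overlap, at 2.70 ± 0.71 in EP and 1.03 ± 0.54 with RU486. It was chosen after its values were seen. Among all genes tested, 1.25% were lower without overlap. The Wnt pathway list had 20 of 35 folds below 0, and its feedback target Axin2 was at 0.39, 0.36, 2.28 and 1.29 against 0.31, 0.07, 0.57 and 0.12.

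Glucocorticoid response genes were listed because mifepristone binds that receptor. Of 28 tested, 23 folds were above 0 (54.9% of all genes were), the median was 0.46, and none had an unadjusted p under 0.05. The median was 0.20 in set 2 and 0.82 in set 3, 0.12 without mice 327 and 313, and 0.03 with the endothelial marker level as a covariate. Fkbp5, a chaperone of steroid receptors, was at 7.14, 13.6, 3.15 and 0.72 in EP and 13.3, 23.1, 3.70 and 3.87 with RU486. Tsc22d3 (GILZ) was 25.0 ± 13 and 32.5 ± 14, Zbtb16 1.72 ± 2.3 and 1.44 ± 0.41, the clock gene Per1 6.07 ± 2.8 and 6.67 ± 1.9, and the kinase gene Sgk1 219 ± 86 and 309 ± 99. The receptor gene Nr3c1 was 10.7 ± 6.3 and 10.1 ± 1.3. All groups overlapped.

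Basal genes had opposite signs in the 2 sets. The median over 16 basal markers was 1.10 in set 2 and -2.89 in set 3, and it was 0.75 without mice 327 and 313. Krt14 was at 248, 135.1, 1815 and 729 in EP and 792, 0, 2038 and 0 with RU486, so that the set 3 fold of -8.30 rested on values listed at 0. Krt5 was at 32.4, 42.9, 243 and 164.6 against 154.5, 0, 307 and 22.2, and Krt17, added after its values were seen, had folds of 1.15 and -5.03. Acta2, the smooth muscle actin, had folds of 1.04 and -4.86, and Cnn1, also added, 1.31 and -3.09. Trp63 (p63) was 15.04 ± 13 and 7.57 ± 7.9. Oxtr, the oxytocin receptor of contracting myoepithelium, was 12.0 ± 10 and 24.0 ± 17. The 20 stem cell genes tested had 13 folds above 0 and a median of 0.12, 0.28 in set 2 and 0.18 in set 3. Among them, Lgr5 was 1.92 ± 0.93 and 2.43 ± 2.1, and Procr 90.4 ± 77 and 177 ± 109, with 0 in mouse 327. Procr is also expressed by endothelium, whose markers differed alongside it: Pecam1, Cdh5 and Kdr had folds of 3.67, 2.16 and 2.76 in set 3 and 0.62, 0.36 and 0.05 in set 2. The part of these markers in other results was not tested beyond the covariate fits.

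Among the remaining lists, the 60 ribosomal protein genes all had folds below 0 in both sets, with a median of -0.27 and none at an unadjusted p under 0.05. No member had both RU486 mice below both EP mice within each set. The list mean was 7.41 and 9.06 in EP mice 306 and 322, and 7.43 and 8.45 in RU486 mice 308 and 324. It was 7.90 and 8.19 in EP mice 311 and 327, and 7.65 and 7.92 in RU486 mice 313 and 329. The median fold was 0.05 with the endothelial marker level as a covariate, with 17 folds below 0. It was -0.19 without mice 327 and 313 and -0.46 on values as deposited, with all 60 folds below 0 in both. Interferon-stimulated genes had a median of -0.47 in set 2 and 0.49 in set 3, and all 28 folds were below 0 without mice 327 and 313 (median -0.51). Unfolded protein response genes had a median of 0.06 (-0.15 without those mice), cholesterol and fatty acid synthesis genes -0.05 (-0.07) and Notch genes 0.16 (-0.17). Circadian clock genes had 16 of 19 folds above 0, with a median of 0.19 (0.15 without those mice). Immediate early and dissociation stress genes, which respond to tissue handling among other stimuli, had 22 of 28 folds above 0. Their median of 0.45 was 0.08 in set 2 and 0.56 in set 3, 0.32 without mice 327 and 313, and 0.15 with the endothelial covariate. Luminal progenitor markers had 15 of 16 folds above 0 (median 0.23; 0.18 without those mice), and pan-luminal markers 10 of 10 (0.20; 0.19). Their part in other results was not tested.

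**Figure D4:**
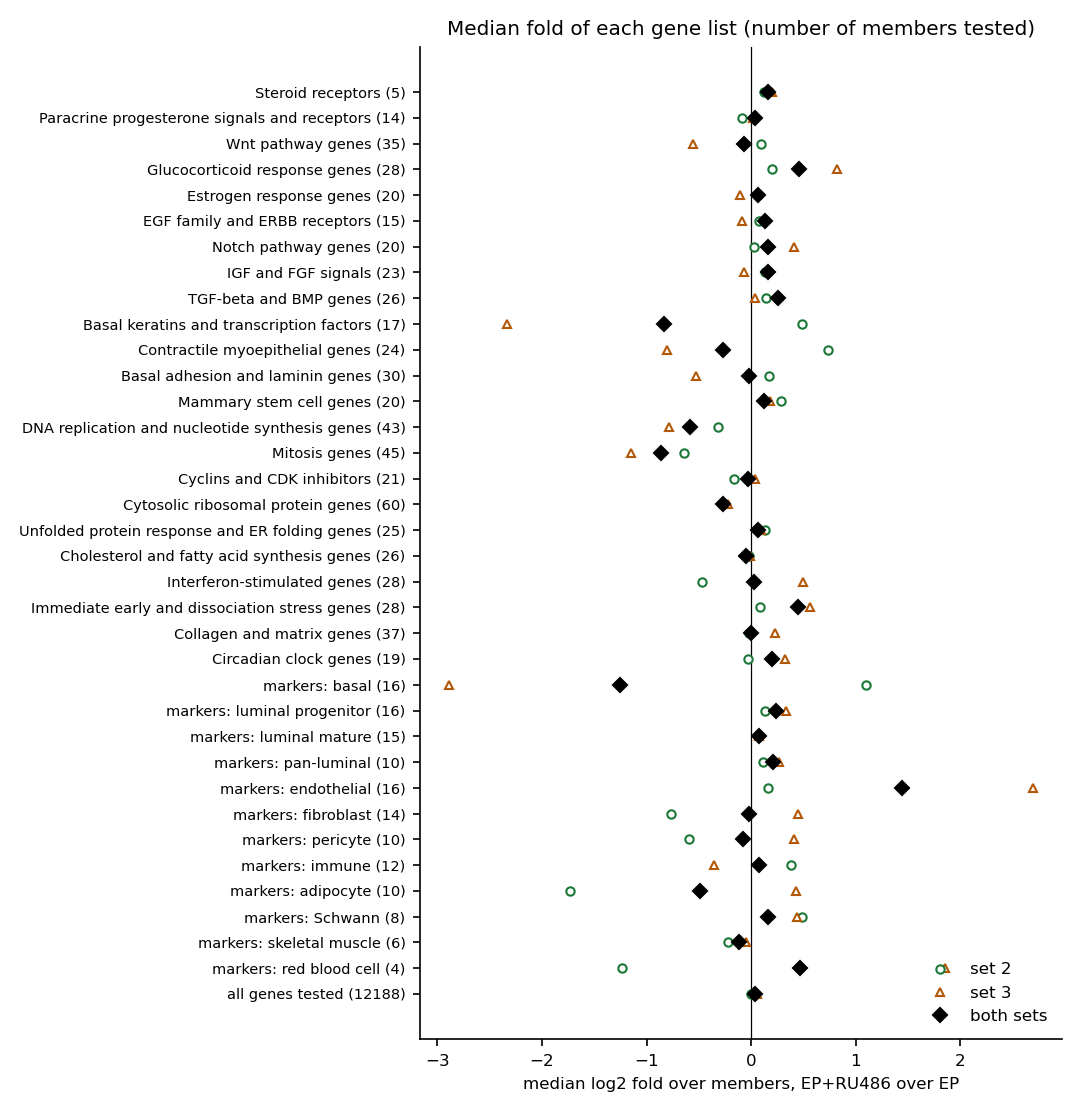
Median log2 fold of EP+RU486 over EP for 35 gene lists and all genes tested (members tested in brackets), in set 2 (circles), set 3 (triangles) and both sets (diamonds). Mitosis and replication genes are below 0 in both sets, at medians of -0.86 and -0.58, whereas basal and endothelial markers lie far from 0 in set 3 (-2.89 and 2.69).

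Beside the other groups, which share libraries with this comparison, the cell division genes of the RU486 mice lay near sham. The mitosis list had a median of 0.76 for EP minus sham, -0.12 for EP+RU486 minus sham and 0.13 for EP+RU486 minus EP+TPA. For replication genes these were 0.54, -0.04 and 0.08. None of the 3 comparisons had a gene past limma's test (0% each). At an unadjusted p under 0.05 there were 655 (5.37%; 2.64% higher, 2.73% lower), 414 (3.4%; 1.35% and 2.04%) and 200 (1.64%; 0.976% and 0.665%). EP+TPA minus EP also had 0 genes past the test, with 851 (6.98%; 3.13% and 3.86%) at an unadjusted p under 0.05. The RU486 mean of Phgdh was below sham, 6.46 ± 2.4 against 16.6 ± 6.7. Its fold, fitted with the set term, was -1.34 and did not pass. Glb1l2 had a fold of -1.38 from sham. Folds of RU486 from sham were below 0 for 34 of 45 mitosis and 26 of 43 replication genes, with Uhrf1 at -0.64 and E2f1 at -0.69.

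The 2 antagonists, both steroidal, were compared at the same time, with doses unknown. Phgdh was 7.98 ± 4.6 with TPA, a difference of -0.32 for RU486 minus TPA (95% interval -0.99 to 0.35). The difference was 0.08 (-0.47 to 0.63) for Glb1l2, -0.14 (-0.70 to 0.43) for Uhrf1 and -0.12 (-1.13 to 0.89) for Pamr1. For the glucocorticoid target Fkbp5 it was 0.17 (-1.54 to 1.89). These intervals allow differences of more than 1 on the log2 scale for some genes, so the compounds were not shown to act alike.

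The effect was then compared with that in luminal progenitors (LP) within set 2, where 4 EP and 4 EP+RU486 LP libraries were adjusted together with the 2 and 2 MSC libraries. There the fractions' effects differed for 236 of 12255 genes (1.93%), 155 with a higher (1.26%) and 81 with a lower (0.661%) fold in MSC. In LP itself 791 genes were higher (6.45%) and 1002 lower (8.18%) with RU486. Mitosis genes had a median of -1.47 in LP and -0.64 in MSC, and replication genes -0.81 and -0.32. The difference passed for 9 of 88 members, each with the fold in MSC nearer to 0: Uhrf1, Chaf1b, Mybl2, Kif11, Aurkb, Ect2, Cdc45, Mcm2 and Cdca3. With the mouse as a replicate block it passed for 12, again each nearer to 0 in MSC, with Rrm2, Plk1 and Tpx2 added. Folds on the log2(value + 1) scale shrink where levels are low, and Mybl2 was at 1.02 and 1.51 in MSC of EP mice 306 and 322. LP levels of these members are not given here, and the part of level in the difference was not tested. For Uhrf1 the fold was -2.05 in LP and -0.45 in MSC (difference 1.61 ± 0.30 SE; limma, adjusted p = 0.012). The MSC mice of set 3, adjusted apart from LP and so not in this test, had a Uhrf1 fold of -2.08. Their medians were -1.15 for mitosis and -0.79 for replication genes, so a weaker effect in MSC is described for set 2 only.

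Phgdh was lower in both fractions, at -2.09 in LP and -1.40 in MSC, with no difference past the threshold (limma, adjusted p = 0.543). Other genes had folds near 0 or of the opposite sign in LP. Skint7 had folds of 2.21 in MSC and 0.02 in LP (difference 2.19 ± 0.18; limma, adjusted p = 5.95e-06), and Pamr1 2.02 and -0.73 (2.75 ± 0.35; limma, adjusted p = 0.00039). The LP level of Skint7 was at or near the lowest value shared in set 2, at 0.094 (SD 0) in EP and 0.113 with RU486. Its LP fold and small SE therefore describe a gene hardly detected in LP. Glb1l2 had -1.49 and -0.21, and Gnai1 -1.18 and -0.17. The lowest value shared in set 2 was above 0 for Glb1l2 (0.34) and Pamr1 (0.54) too. LP levels of Pamr1, Glb1l2 and Gnai1 are not given here, and the part of a low LP level in these differences was not tested. Of the paracrine genes, Rspo1 had a fold of -3.11 in LP and -0.10 in MSC (difference 3.01; limma, adjusted p = 0.04), while Wnt4 (-2.47 and 0.27) missed the threshold. Areg (-4.29 and -0.77) missed it too (limma, adjusted p = 0.079) but passed with the mouse as a replicate block (adjusted p = 0.042).

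**Figure D5:**
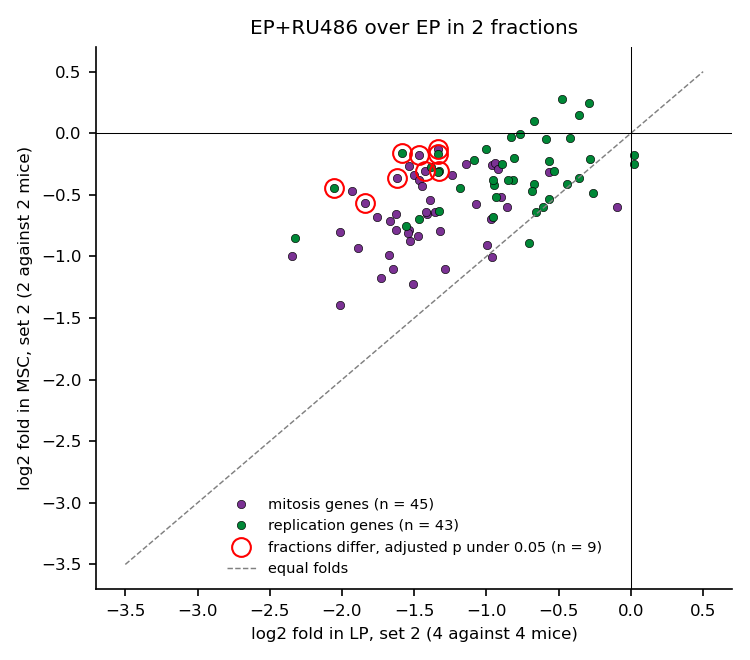
Log2 fold of EP+RU486 over EP within set 2 for mitosis (purple) and replication (green) genes, in LP (x axis, 4 against 4 mice) and MSC (y axis, 2 against 2 mice); the dashed line marks equal folds and red rings the 9 genes whose effects differ between the fractions. Most points lie above the line, with medians of -1.47 in LP and -0.64 in MSC for mitosis genes.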

How the data were processed

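RNA-seq of sorted mammary fractions was analysed from the single table of values that the authors deposited. It is described as read counts, but its values are not whole numbers and have the scale of FPKM; the tools named in the submitters' processing notes are STAR, Cufflinks and DESeq2, with build mm9, and neither their versions nor their roles are given. The FPKM values the authors deposited also carry a shift and rescaling by gene within 3 sets of libraries, which no source used here describes. Many values of set 3 are listed at 0, as if values under 0 had been set to 0, but this was not tested. Depth is unknown, so no count test was possible. Of 22007 symbols, 27 that had become dates were left out.

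Libraries were rescaled by median ratio within a set (factors 0.625 to 1.32 over the 8 libraries). Genes needed a value of at least 1 in 3 libraries and 3 values above the set's lowest shared value. limma 3.58.1 (R 4.3.3; trend and robust) was fitted to log2(value + 1) of all 16 MSC libraries with group and set, with Benjamini-Hochberg adjustment over all 12188 genes and a threshold of 0.05. The fractions were compared by an interaction term in set 2. Tested on simulated data for EP+RU486 minus EP over 12188 genes, the fit recovered 45 and 46 of 50 genes at log2 changes of -3 and 3, and 27 and 29 of 50 at -1.5 and 1.5, with 8 unchanged genes called. The simulated noise was normal, independent between genes and equal in all libraries. The real libraries differed in spread (weights from 0.234 to 6.74), so recovery in the real data may be lower and was not tested. The text names the 8 genes of smallest p in each direction and a panel, of which 23 genes are given and 1 is not reported here; others are said to be chosen after their values were seen. The gene lists (35, of which 12 are marker lists), members and tests were chosen with earlier results of these data known. Nothing in the labels says more of how mice were housed or processed together, so p-values measure the spread between these mice. For the comparison of fractions, each LP group had 4 libraries in set 2. The MSC groups EP and EP+RU486 had 2 each there, and MSC sham and EP+TPA 1 each. The SEs and p-values of that comparison thus rest mainly on the LP spread. Its main fit had no term for the mouse. Alternatives are in the closing section.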

Additional observations from a re-analysis of the deposited data

Results flagged for a closer look

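In 120 groups of 4 mice examined, 3 had 1 mouse far from the other 3 by Dixon's criterion; chance alone gives about 1 in 20 groups. Spc24 was at 1.84 in EP+RU486 mouse 329, Tsc22d3 at 43.8 in EP mouse 306 and Sgk1 at 159.9 in EP+RU486 mouse 313.

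For 9 of the genes named, the fold of EP+RU486 over EP differed between MSC and LP within set 2 (limma interaction, adjusted p under 0.05). The difference, MSC minus LP, was 2.75 for Pamr1, 1.57 for Sync, 2.19 for Skint7, 2.13 for Map1b, 1.61 for Uhrf1, 3.01 for Rspo1 and 1.12 for Mybl2. It was -1.29 for Glb1l2 and -1.01 for Gnai1. The MSC side of each rests on 2 against 2 mice, and the spread used in the test came mainly from LP libraries. Skint7 was at the lowest value shared in set 2 in the LP EP libraries. LP levels of the other genes are not given here. With the mouse as a replicate block, 3 more named genes passed: Areg (adjusted p = 0.042), Nr3c1 (0.035) and Rrm2 (0.041).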

How the results depend on the processing

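The count of genes past the threshold for EP+RU486 minus EP was 0 in all but 4 of the 22 alternatives. It was 2 with the basal and 2 with the endothelial marker level as a covariate (both added after seeing the data), 1 with no filter on low values and 96 with library weights. The weights ran from 0.234 to 6.74 (EP mouse 311). Leaving out 1 of the 8 libraries under weights, also added later, gave from 0 (without EP 327 or EP+RU486 313) to 4341 calls (without EP 311). EP minus sham had 1086 calls with weights, 1 with no filter, and from 0 to 1 (without EP 306) leaving out 1 replicate. EP+RU486 minus sham had 3 with weights. EP+TPA minus EP had 152 with weights, 2 with no filter, 5 on values as deposited, and from 0 to 12 (without EP 306) leaving out 1 replicate. The MSC against LP comparison had 236 calls, and 353 with the mouse as a replicate block. That block was fitted because LP and MSC libraries can come from 1 mouse. Its consensus correlation was 0.134. The correlation of the LP and MSC deviations from their group means was -0.22 for mouse 306. It was 0.22 for mouse 308, 0.35 for mouse 322 and 0.24 for mouse 324. Why the count rose was not tested.

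Of 59 named genes, 38 kept their sign in every alternative fitted, and over the alternatives fitted the median was -1.36 (pseudocount 0.1) to -0.66 for the mitosis and -0.84 to -0.31 for the replication list. Each of the 21 others changed sign in some alternative, and the cause was not tested. With the basal covariate the log2 fold was -0.19 for Nr3c1, -0.11 for Tnfsf11, 0.018 for Rspo1, -0.24 for Zbtb16, 0.0063 for Acta2 and 0.63 for Cnn1. With the endothelial covariate it was 0.019 for Pgr, -0.022 for Esr1, -0.22 for Nr3c1, -0.095 for Tnfsf11, 0.050 for Rspo1, -0.022 for Fkbp5, -0.36 for Zbtb16, -0.19 for Cdh5, -0.18 for Kdr and 0.47 for Cnn1. With library weights it was -0.038 for Esr1, -0.047 for Wnt4, 0.079 for Rspo1 and -0.50 for Lgr5, and with a pseudocount of 0.1 it was -0.54 for Lgr5. On set 2 alone it was -0.62 for Nr3c1, -0.37 for Tsc22d3, -0.57 for Zbtb16, 1.28 for Krt5, 0.92 for Krt14, 1.04 for Acta2, 0.48 for Trp63, -0.19 for Cdkn1a, 1.31 for Cnn1 and 1.15 for Krt17. On set 3 alone it was -0.0088 for Wnt4, 0.095 for Rspo1, -0.78 for Lgr5 and -0.31 for Oxtr. On values as deposited it was -0.087 for Nr3c1, -0.0026 for Tnfsf11, -0.036 for Wnt4 and -0.16 for Lgr5. Without mice 327 and 313 together it was -0.16 for Nr3c1, -0.20 for Fkbp5, -0.24 for Zbtb16, 0.54 for Krt5, 0.95 for Acta2, 0.068 for Trp63, -0.15 for Cdkn1a, 1.52 for Cnn1 and 0.18 for Krt17. Leaving out 1 replicate gave ranges of -0.14 to 0.34 for Nr3c1, -0.0037 to 0.22 for Tnfsf11, -0.044 to 0.077 for Rspo1, -0.37 to 0.34 for Lgr5, -0.20 to 0.67 for Zbtb16, -0.10 to 0.41 for Per1, -3.04 to 0.068 for Acta2, -0.017 to 2.49 for Cdkn1a and -1.76 to 0.63 for Cnn1. Read depth is unknown, so counting error could not be set beside these values.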
